A study of Brassica napus with 12 samples.

Results

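The genes described here are the loci placed on the 10 numbered A chromosomes of *B. napus* (oilseed rape), A01 to A10. They were taken from the deposited count tables by their identifiers, which begin with BnaA, the chromosome number and g, followed by a number. The number largely follows the chromosome, apart from a short second series, described below, whose genes belong elsewhere along it. Of the 101038 genes counted, 40250 had such an identifier, from 2973 on A04 and 3064 on A10 to 5728 on A09 and 6076 on A03, and the 4202 A genes without a chromosome number were left out. Root tips of the spring varieties Drakkar and Duplo were sequenced. Seeds germinated for 3 days and seedlings then grew for 7 days in a pouch-and-wick system at a constant 21 °C (optimal) or 29 °C (warm). Each of the 4 groups had 3 biological replicates, each a pool of seedlings, so that 12 libraries were compared. The sample labels give root tips of 1 cm, whereas the methods of the study give a shorter piece. Varieties were not crossed or transformed, and each stands for 1 genotype.

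*B. napus* is an allotetraploid: its A subgenome derives from *B. rapa* and its C subgenome from *B. oleracea*, and most A genes have a close homoeologous copy on a C chromosome. Homoeologous chromosomes can pair at meiosis in this species, and varieties are known to differ by segments in which the copies of one subgenome were replaced by those of the other, or were lost or duplicated. Only RNA was measured here, so a different number of gene copies, a different sequence that aligned less well to the reference, and a different level of transcription from the same copies cannot be told apart. Reads of near-identical A and C copies may also have been divided between them by the authors' counting, which is uncertain for each gene named here.

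The libraries held between 26554987 and 39934384 counts on genes. Within each group, every pair of libraries differed by more than counting noise allows, with a chi-square of 7.98 to 60.5 per degree of freedom. None of the 7 root or leaf marker loci that were looked for is paired with an identifier in the annotation at hand, so the labelled tissue could not be checked. Of the A genes, 30880 had a count in at least 1 library and 9370 had none in any. Levels are given as CPM, the count scaled to the library total, on 1 scale for all 12 libraries. Intervals from replicates apart, the precision of a level follows from its counts and covers counting error only.

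Duplo 21 °C replicates 1 and 3 carried transcripts that the other Duplo libraries lacked. Over 79 A genes with at most 3 counts in every Duplo 29 °C library and at least 3 CPM in Drakkar at 29 °C, the summed level in Duplo 21 °C replicate 1 was 4.72% of that in Drakkar at 21 °C, and 36 of the genes exceeded 3 counts. In Duplo 21 °C replicate 3 the summed level was 2.14% and 29 genes exceeded 3 counts, whereas in Duplo 21 °C replicate 2 it was 0.0655% and 0 genes did so. The same measure in the other 9 libraries, each over genes chosen in the other temperature of its variety, lay between 0.0846% and 0.393%. The main results on genes that are low in Duplo at 21 °C are therefore also given without replicates 1 and 3. That leaves replicate 2 as the only Duplo library at 21 °C, so these values carry no spread between replicates.

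To see how much of the transcriptome each chromosome supplied, the share of all counts was computed per library. The A chromosomes together held 45.4% ± 0.15 (SD, n = 6) of the counts in Drakkar and 45.6% ± 0.10 (SD, n = 6) in Duplo, a difference of 0.291 percentage points, with the Duplo libraries above the Drakkar libraries at both temperatures (two-sided exact permutation test within temperature, p = 0.005, the smallest its 400 arrangements can give). A03 and A10 held a larger share in Duplo, and A02 and A05 a smaller one. These 4 chromosomes passed the test, each with p = 0.005 and an adjusted p of 0.0125 over the 10 chromosomes (exact permutation test).

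The share of A03 in Drakkar was 7.37%, 7.28% and 7.45% at 21 °C and 7.31%, 7.21% and 7.21% at 29 °C. In Duplo it was 7.83%, 7.88% and 7.73% at 21 °C and 7.88%, 7.83% and 7.46% at 29 °C. All Duplo libraries were above all Drakkar libraries, with Duplo 29 °C replicate 3 nearest to them, and the difference of the means was 0.464 points, or 6.36% of the Drakkar share. The share of A10 was 2.98%, 3.08% and 3.04% in Drakkar at 21 °C, 2.94%, 2.97% and 2.86% in Drakkar at 29 °C, 3.38%, 3.34% and 3.32% in Duplo at 21 °C and 3.37%, 3.36% and 3.21% in Duplo at 29 °C. Again the varieties did not overlap, and the difference of 0.353 points was 11.9% of the Drakkar share. For A05, the mean was 4.51% ± 0.048 in Drakkar and 4.30% ± 0.033 in Duplo (SD, n = 6), and for A02 it was 3.91% ± 0.091 and 3.70% ± 0.028. The remaining chromosomes differed by between -0.0894 points on A07, where p = 0.065 (exact permutation test), and 0.0380 points on A08.

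**Figure D1:**
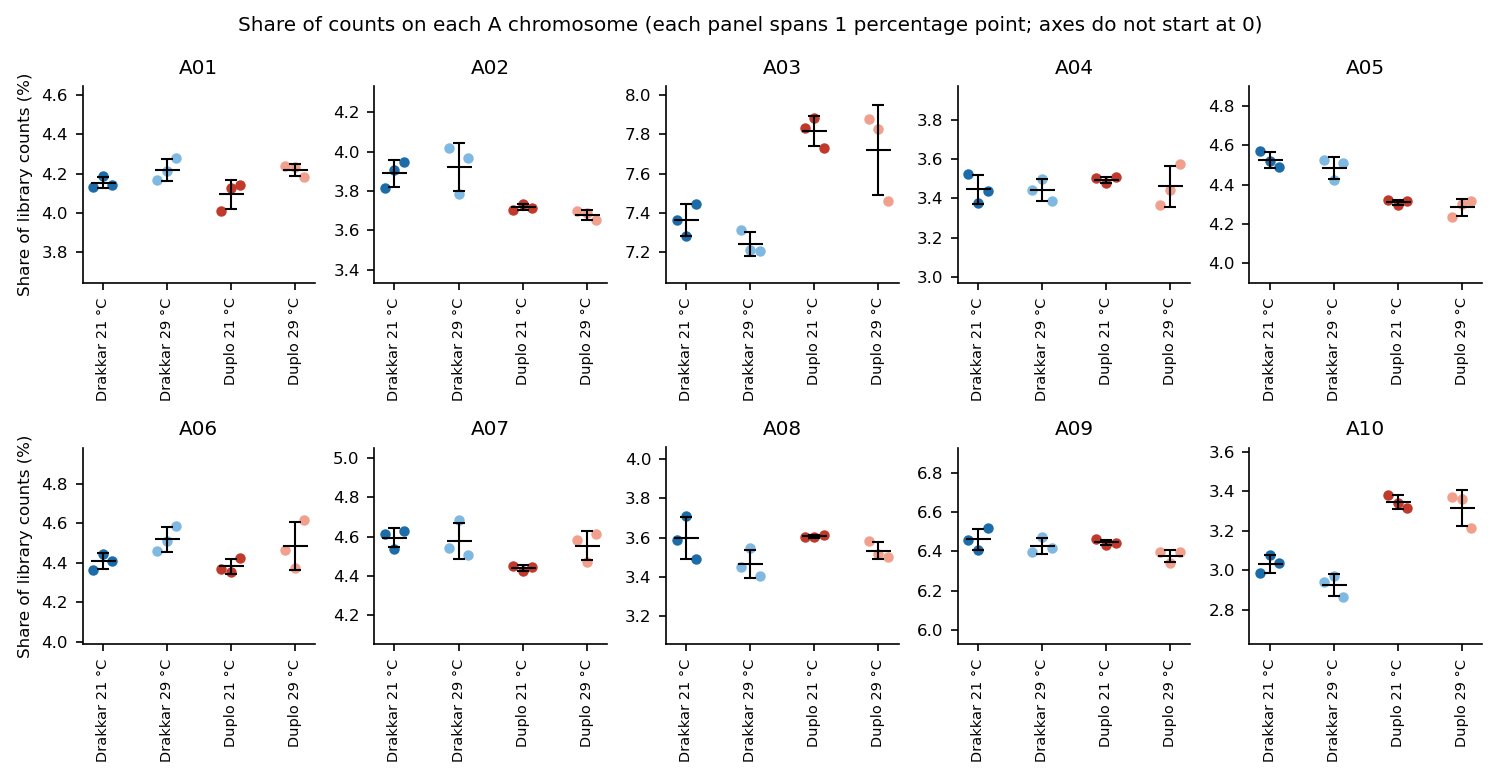
Share of the counts of each library that fell on each A chromosome, in percent, with 1 panel per chromosome. Points are libraries, and black lines and bars are the mean and SD of the 3 libraries of a group. Duplo lay above Drakkar on A03 and A10 and below it on A02 and A05 at both temperatures.

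Temperature was compared in the same way. Between 29 °C and 21 °C the A chromosomes together changed by -0.132 points (p = 0.085, exact permutation test within variety), and 0 of the 10 chromosomes passed the adjusted threshold. The smallest unadjusted p-values were those of A01 (0.0948 points, p = 0.01), A06 (0.107 points, p = 0.02) and A08 (-0.101 points, p = 0.025), each with an adjusted p of 0.0833 (exact permutation test). When the 50 genes with the highest shares were left out, 3 chromosomes reached an adjusted p of 0.05 (exact permutation test), namely A06 (0.137 points), A08 (-0.130 points) and A09 (-0.0688 points).

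A gene was taken as detected in a group when at least 2 of its 3 libraries held at least 1 CPM. By this measure 19613 A genes were detected in Drakkar at 21 °C and 20438 at 29 °C, and 19625 in Duplo at 21 °C and 19712 at 29 °C. These were 48.7%, 50.8%, 48.8% and 49.0% of the A genes, and 18219 genes were detected in all 4 groups. The smallest share was that of A02, of whose 3717 genes 42.3% were detected in Drakkar at 21 °C, followed by A04 with 44.2%, whereas the other chromosomes lay between 48.3% and 51.8%. Detection in both Drakkar groups and neither Duplo group was found for 585 genes, and the reverse for 419. On A02 these numbers were 52 and 21, on A07 80 and 35, and on A01 53 and 57. No such count was made over all genes, so whether the excess in Drakkar is particular to the A chromosomes cannot be told.

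The varieties were compared at each temperature with edgeR's quasi-likelihood test over all genes. A gene was called when its Benjamini-Hochberg adjusted p was under 0.05 and its log2 fold change above 1 or below -1. At 21 °C, 2843 of 23487 A genes tested were called, 1465 of them higher and 1378 lower in Duplo. This is 12.1%, beside 12.3% of all genes tested. At 29 °C, 2546 of 23615 A genes were called (1269 higher and 1277 lower), or 10.8%, beside 11.1% of all genes tested. An unadjusted p under 0.05 was found for 7837 A genes at 21 °C and 6272 at 29 °C, beside 32.1% and 25.6% of all genes. The temperatures share no library. The genes called at both in the same direction numbered 1852, which is 65.1% of the 21 °C list and 72.7% of the 29 °C list, and 1 gene was called in opposite directions. Over all genes these shares were 69.1% and 76.3%. Of the 2723 A genes called at 21 °C that were tested at 29 °C, 2664 had the same sign, beside 6104 of 6245 over all genes.

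The A chromosomes were unequal in this respect. A03 had the highest share of called genes, 16.7% at 21 °C and 15.01% at 29 °C, and A08 the lowest, 6.95% and 6.33%. A03 remained highest and A08 lowest in each of the 14 alternative analyses at 21 °C and the 13 at 29 °C. In each of them A01, A03, A05, A07 and A10 also lay above the share of all genes, and A02, A06, A08 and A09 below it. On A01 the shares were 13.9% and 12.5%, on A05 14.1% and 13.1%, on A07 14.4% and 12.4%, and on A10 14.1% and 12.2%. A02 (9.62% and 8.03%), A06 (9.23% and 8.10%) and A09 (8.28% and 7.49%) were low, and A04 (12.2% and 10.9%) was close to all genes.

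The direction differed between chromosomes as well. At 21 °C, 347 genes of A03 were higher and 252 lower in Duplo, and 166 genes of A10 were higher and 99 lower. On A02, 72 genes were higher and 113 lower at 21 °C, and 48 and 109 at 29 °C. Over all genes tested, 6.09% were higher and 6.25% lower at 21 °C, and 5.17% and 5.96% at 29 °C. The median log2 difference of a chromosome stayed between -0.053 on A02 and 0.042 on A10 at 21 °C.

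**Figure D2:**
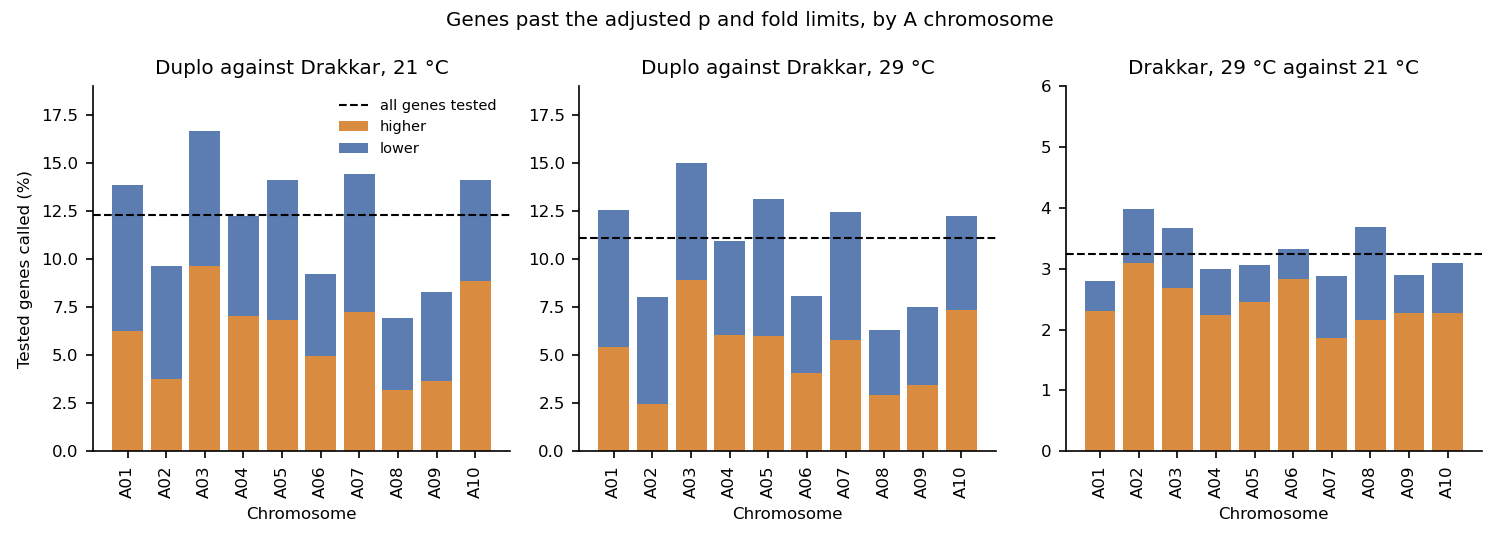
Percentage of tested genes called on each A chromosome, for the varieties at 21 °C, the varieties at 29 °C and the temperatures in Drakkar. Orange parts are genes higher in Duplo or at 29 °C, blue parts genes lower, and the dashed line is the share of all genes tested. A03 was highest and A08 lowest in both variety comparisons, and the vertical scale of the Drakkar panel is shorter.

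To find neighbouring genes that shifted together, the median log2 difference between the varieties was followed along the identifiers in windows of 15 tested genes. Windows with a median of at least 0.8 in either direction were joined where they overlapped, which gave 37 blocks on the A chromosomes at 21 °C. Of these, 20 were higher and 17 lower in Duplo, they held 1167 tested genes, and 5 had at least 40 genes. Joined blocks were not equally uniform. BnaA03g00020D to BnaA03g02210D had a median of 0.90, with 128 of 143 genes of its sign. BnaA01g17130D to BnaA01g17460D had a median of 0.22, with 12 of 19. Blocks of opposite direction overlapped in places, as on A03 and A10, so some genes belong to both. In the 29 °C libraries, which took no part in choosing them, 36 of the 37 blocks had the same sign. The ends of a block are uncertain by several genes.

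Whether identifiers follow the chromosome was examined with a RefSeq gene table of the Da-Ae assembly. Of 1265 A genes that matched it once by symbol, 1141 (90.2%) lay on the chromosome of their identifier. The identifiers of each chromosome form 2 series. In the longer first series the order of the matched genes had a Spearman correlation of 0.975 to 1.00 with the order in Da-Ae, given as a description over 61 to 186 genes per chromosome. The short second series holds genes that belong elsewhere along the chromosome. In Da-Ae, the matched genes BnaA03g55330D to BnaA03g55510D of the second series of A03 fell between BnaA03g01950D and BnaA03g03630D, and BnaA05g37460D and BnaA05g37470D fell between BnaA05g33100D and BnaA05g33980D. Both are the stretches in which the first series shifted, as follows.

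The longest shifts were at the start of A03, the end of A05 and the end of A10, and their limits were set after the values were seen. The first 409 genes of A03, BnaA03g00010D to BnaA03g04090D, had a median log2 difference of 0.90 at 21 °C and 0.97 at 29 °C, close to a doubling in Duplo. Of 281 tested at 21 °C, 257 were higher in Duplo, 106 of them called, and 5 genes were called lower. At 29 °C, 109 were called higher and 2 lower of 275 tested. The 81 genes BnaA03g54800D to BnaA03g55600D of the second series had medians of 0.83 and 1.05.

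**Figure D3:**
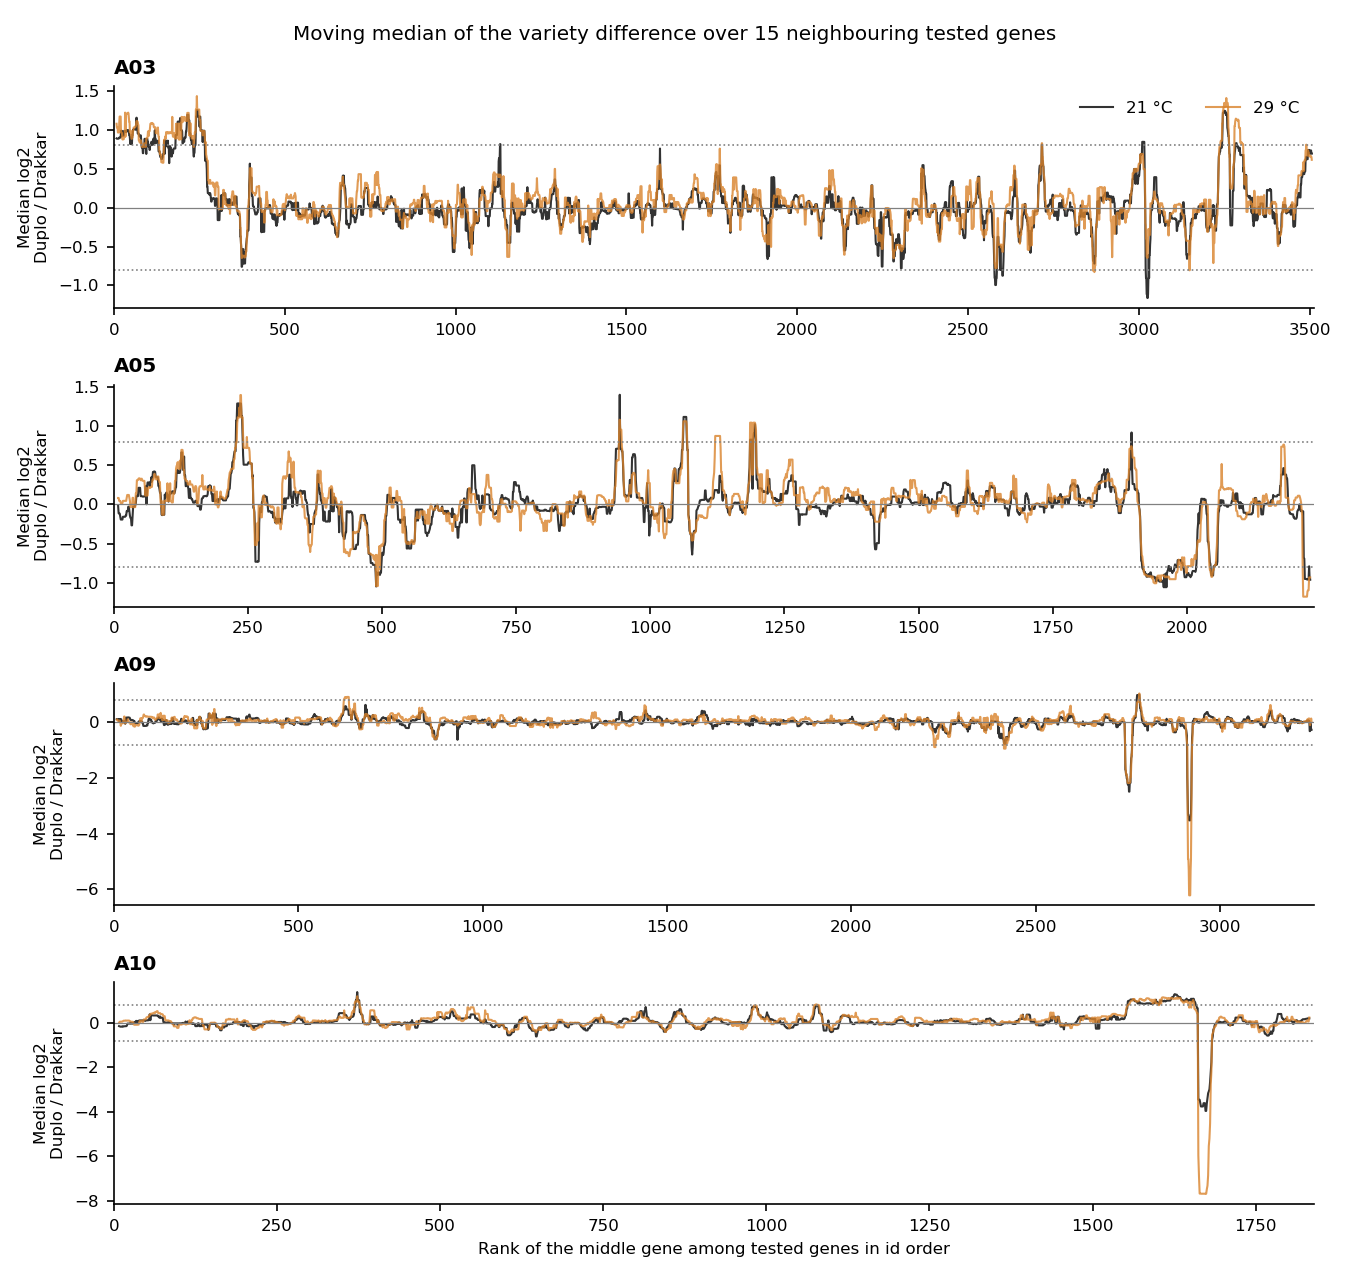
Median log2 difference of Duplo against Drakkar over 15 neighbouring tested genes along A03, A05, A09 and A10, against the rank of the middle gene in identifier order, at 21 °C (black) and 29 °C (orange). Dotted lines mark 0.8 and -0.8. The start of A03 and a stretch near the end of A10 were shifted upwards, the end of A05 downwards, and short stretches of A09 and A10 far downwards at both temperatures.

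The summed level of the A03 start was 4883, 4938 and 5047 CPM in Drakkar at 21 °C and 4860, 4887 and 4976 CPM at 29 °C. In Duplo it was 9011, 9456 and 9123 CPM at 21 °C and at 9207, 9053 and 9076 CPM at 29 °C. The varieties were far apart and the temperatures within a variety overlapped. The homoeologous start of C03 moved the other way. Its 586 genes summed to 7476 ± 42.0 CPM in Drakkar and 1597 ± 328 CPM in Duplo at 21 °C (SD, n = 3), and to 7234 ± 284 and 1368 ± 64.0 CPM at 29 °C. Of 354 genes tested there at 21 °C, 293 were called lower in Duplo, with a median of -2.92. Without Duplo 21 °C replicates 1 and 3 the median was -3.91.

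Added together, both A03 stretches and the start of C03 gave 13521 ± 95.3 CPM in Drakkar and 12758 ± 166 CPM in Duplo at 21 °C, and 13061 ± 307 and 12286 ± 185 CPM at 29 °C (SD, n = 3). The A copies supplied 44.7% ± 0.43 of this sum in Drakkar and 87.5% ± 2.4 in Duplo at 21 °C, and 44.6% ± 0.89 and 88.9% ± 0.69 at 29 °C. The sum differed by less than either of its parts. Among the annotated genes, 5 Arabidopsis loci had a copy in both the A03 and the C03 stretch and 2 had a copy in both the A10 stretches and C03, whereas 0 were shared by the other pairs set side by side here, of which few genes are annotated.

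A05 showed the reverse. The 220 genes BnaA05g31960D to BnaA05g34150D had medians of -0.83 at 21 °C and -0.85 at 29 °C. Of 149 tested at 21 °C, 34 were called lower and 0 higher, and of 152 tested at 29 °C, 30 were called lower and 0 higher. The 41 genes BnaA05g37100D to BnaA05g37500D of the second series had medians of -0.79 and -1.09. Summed over the 220 genes, the level was 5297, 5224 and 5267 CPM in Drakkar and 3535, 3215 and 3289 CPM in Duplo at 21 °C, and 5251, 5288 and 5009 CPM in Drakkar and 3326, 3226 and 3007 CPM in Duplo at 29 °C. The end of C05, with 239 genes, rose from 615 ± 9.25 CPM in Drakkar to 3369 ± 222 CPM in Duplo at 21 °C (SD, n = 3), and 118 of its 141 tested genes were called higher. Over A05 and C05 together the A copies supplied 90.2% ± 0.19 of the level in Drakkar and 51.6% ± 3.0 in Duplo at 21 °C, and 90.7% ± 0.55 and 49.9% ± 0.66 at 29 °C.

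Near the end of A10, the 165 genes BnaA10g25490D to BnaA10g27130D had medians of 0.99 and 0.98. Of the genes tested, 48 of 111 were called higher at 21 °C and 37 of 110 at 29 °C, and 0 were called lower. Their summed level was 2121, 2290 and 2215 CPM in Drakkar and 4390, 4269 and 4291 CPM in Duplo at 21 °C, and 2035, 2018 and 1958 CPM in Drakkar and 3838, 3929 and 3615 CPM in Duplo at 29 °C. Directly after it in identifier order, BnaA10g27140D to BnaA10g27850D (72 genes) contained the strongest losses on this chromosome. There, 21 of 35 tested genes were called lower and 3 higher in Duplo at 21 °C, with a median of -2.99, and 23 of 35 lower and 2 higher at 29 °C, with a median of -5.96. At 21 °C the median was -3.74 without Duplo replicate 1 and -4.19 without Duplo replicates 1 and 3. With at least 10 counts required in every library, 11 genes remained and their median was 0.08. One of these genes matched Da-Ae, BnaA10g27800D, and fell between BnaA10g02470D and BnaA10g02700D, so these identifiers may not lie beside the preceding stretch on the chromosome. The 55 genes at the end of C09 summed to 858 ± 22.0 CPM in Drakkar and 406 ± 19.7 CPM in Duplo at 21 °C. The sum of A10 and C09 differed between the varieties: it was 3240 ± 92.1 CPM in Drakkar and 4831 ± 84.96 CPM in Duplo (SD, n = 3). It covers 237 A10 genes, with the stretch of losses among them, and only 55 C09 genes, so it does not set matched copies side by side.

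On A09, BnaA09g48180D to BnaA09g48730D (56 genes) had medians of -1.65 and -1.47, and of -1.43 at 21 °C without Duplo replicates 1 and 3. The summed level was 1233, 1086 and 1425 CPM in Drakkar and 530, 381 and 425 CPM in Duplo at 21 °C, and 1363, 1120 and 1333 CPM in Drakkar and 274, 393 and 419 CPM in Duplo at 29 °C. A stretch of 41 genes on C08 was higher in Duplo, with medians of 0.81 and 1.04. The A09 genes supplied 59.4% ± 0.60 of the level of both in Drakkar and 26.1% ± 1.9 in Duplo at 21 °C (SD, n = 3).

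**Figure D4:**
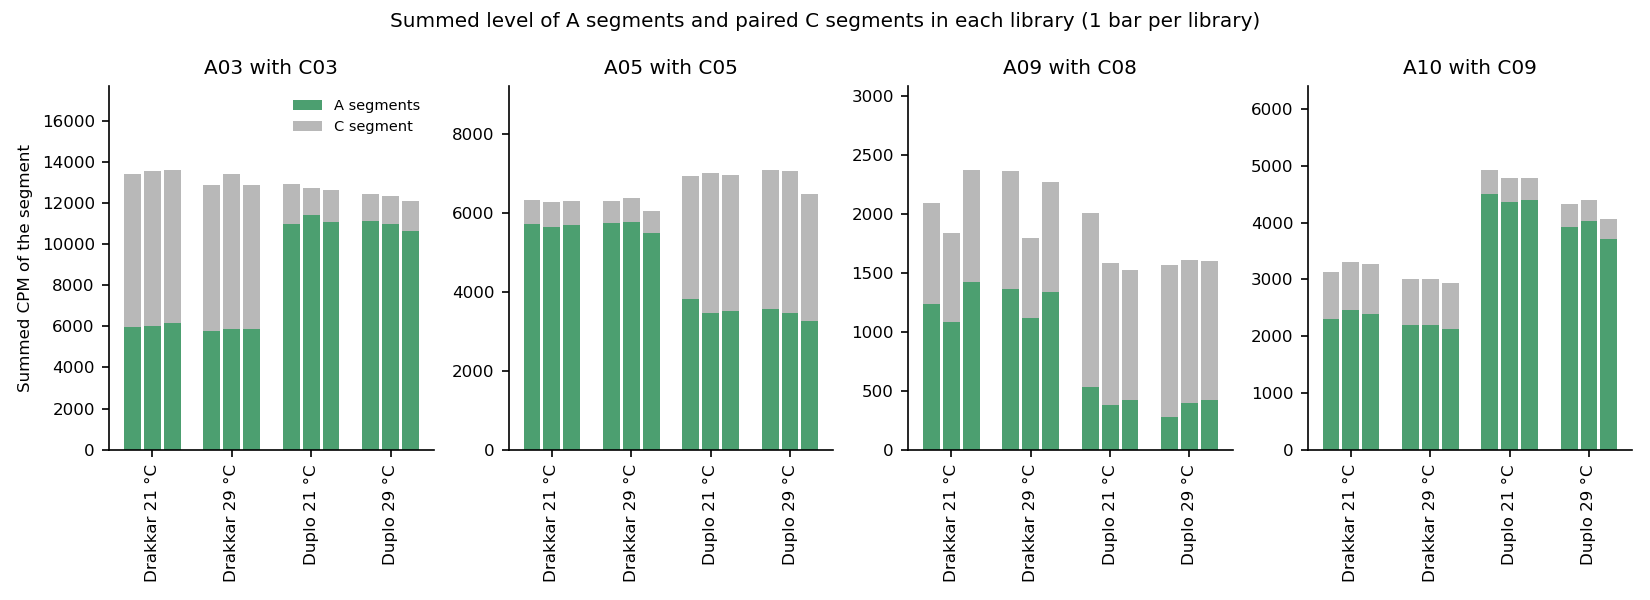
Summed level, in CPM, of the shifted A stretches (green) and the opposite C stretches (grey) in each of the 12 libraries, stacked. The A part of A03 with C03 made up 44.7% of the bar in Drakkar and 87.5% in Duplo at 21 °C, and that of A05 with C05 made up 90.2% and 51.6%.

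The differences in share on A03 and A05 lay within these stretches. They were chosen on the same libraries, so a smaller difference without them was built in. Without their genes, A03 held 6.71% of the counts in Drakkar and 6.66% in Duplo, and A05 held 3.94% and 3.95%, with overlapping libraries. A10 still held 2.75% in Drakkar and 2.92% in Duplo, and the lowest Duplo library (2.84%) stayed just above the highest Drakkar library (2.83%). A high share of called genes inside the stretches was built in by their choice. At 29 °C they held 260 called genes of 689 tested (37.7%). Among the 22926 A genes outside them 9.97% were called at 29 °C, and 12.2% of A03, 12.3% of A05, 9.68% of A10 and 7.05% of A09.

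A few genes of the stretches have an annotation, which was available only for genes that the study listed for their response in these samples. Metallothionein 2A (*MT2A*), a small metal-binding protein, has a copy in the second series of A03 (BnaA03g54880D), a copy on A10 (BnaA10g27170D) and a copy at the start of C03 (BnaC03g00710D). BnaA03g54880D was at 4.97, 2.10 and 4.35 CPM in Drakkar and 16.98, 13.91 and 25.48 CPM in Duplo at 21 °C, with a log2 difference of 2.30 (SE 0.36, edgeR adjusted p = 0.00311). At 29 °C it was at 12.01, 22.56 and 16.39 CPM in Drakkar and 7.82, 11.8 and 32.4 CPM in Duplo, where the varieties overlapped (log2 difference 0.09, SE 0.52, edgeR adjusted p = 0.943). The C03 copy was at 1.39, 0.952 and 1.103 CPM in Drakkar at 21 °C and at 6.71, 8.60 and 8.47 CPM at 29 °C, and at 0 in all 6 Duplo libraries.

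Of the 29 annotated A genes in these stretches, 24 were tested at 21 °C and 21 of them had the sign of their stretch, 9 of them called, while 1 was called the other way. The stretches were chosen on these values, so the agreement at 21 °C was largely built in. At 29 °C, 28 were tested, 23 had that sign and 8 of these were called. Beside this, 260 of 689 tested genes of the stretches (37.7%) and 11.1% of all genes were called there in either direction. The gene called against its stretch was the A10 copy of *MT2A*, BnaA10g27170D, with a log2 difference of 1.21 at 21 °C (SE 0.22, edgeR adjusted p = 0.00709). It lies where a block higher in Duplo and a block lower in Duplo overlapped, so its stretch depends on where the limit was set. In the A03 start, *ATHCYSTM12* (BnaA03g01180D), of a family of cysteine-rich stress proteins, was at 1.48, 2.05 and 1.58 CPM in Drakkar and 4.71, 4.96 and 4.34 CPM in Duplo at 21 °C (log2 difference 1.46, SE 0.16, edgeR adjusted p = 0.00072). In the A10 stretch of losses, *SIS* (BnaA10g27420D), whose Arabidopsis counterpart is known for salt tolerance, was at 0.880, 1.00 and 0.715 CPM in Drakkar at 21 °C and at 3.80, 3.10 and 7.69 CPM at 29 °C. It was at 0 in 5 Duplo libraries and at 0.0296 CPM in Duplo 21 °C replicate 1. In the A09 stretch, *ERD6* (BnaA09g48640D), a putative sugar transporter, was at 29.7, 31.8 and 33.3 CPM in Drakkar and 5.10, 13.5 and 12.7 CPM in Duplo at 21 °C, where the varieties did not overlap (log2 difference -1.59, SE 0.33, edgeR adjusted p = 0.0117). At 29 °C *ERD6* reached between 72.5 and 78.1 CPM in Drakkar and between 5.93 and 46.9 CPM in Duplo, again without overlap (log2 difference -1.49, SE 0.62, edgeR adjusted p = 0.192).

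Stronger, near-complete losses were sought as runs of neighbouring genes. Among genes with a mean of at least 1 CPM in one variety at 21 °C, a gene was taken as low when its mean was at least 4-fold lower in one variety (with 0.1 CPM added) and the 3 libraries of that variety lay below those of the other. A run held at least 5 low genes with at most 1 other such gene between neighbours. On the A chromosomes 459 of 20622 genes (2.23%) were low in Duplo and 417 (2.02%) low in Drakkar, beside 2.88% and 2.5% of all genes. At 29 °C, 379 (82.6%) and 288 (69.1%) of them were low by the same rule. Over all genes, 87.4% and 77.5% of those low at 21 °C were low again. The rule was met at 29 °C by 3.4% and 2.33% of all genes. On A02 the numbers were 37 low in Duplo and 14 low in Drakkar, whereas on A03 they were 81 and 100. Without Duplo 21 °C replicates 1 and 3, 575 genes were low in Duplo, 442 of them among the 459. Only replicate 2 remained there, and the rule that libraries do not overlap is easier to meet with 1 library than with 3.

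The low genes formed 4 runs in Duplo, with 45 low genes, and 0 runs in Drakkar. On the C chromosomes the same search gave 12 runs in Duplo and 6 in Drakkar. The runs lay on A07 (BnaA07g33400D to BnaA07g33550D), at 2 places on A09 (BnaA09g48330D to BnaA09g48630D and BnaA09g51340D to BnaA09g51550D) and on A10 (BnaA10g27350D to BnaA10g27720D). They held 9, 11, 10 and 15 low genes, of 10, 15, 11 and 15 genes expressed at that level. All 4 were also found without Duplo 21 °C replicates 1 and 3, where only replicate 2 remained. At 29 °C, in libraries that took no part in choosing them, 8, 11, 10 and 15 of these genes were again low, and every member tested was called lower in Duplo by edgeR, namely 9 of 9, 11 of 11, 10 of 10 and 15 of 15. Over all genes tested, 5.96% were called lower in Duplo there. Of all A genes low in Duplo at 21 °C, inside or outside runs, 82.6% were low again, so persistence was not particular to runs. The median log2 differences at 21 °C were -3.41, -2.65, -3.44 and -3.31, and at 29 °C -5.06, -2.43, -5.28 and -4.78. Without Duplo 21 °C replicates 1 and 3 the medians at 21 °C were -4.84, -2.60, -5.19 and -4.43, nearer to those at 29 °C in 4 of the 4 runs.

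BnaA09g51510D, the most abundant gene of the second A09 run, was at 98.5, 114 and 97.6 CPM in Drakkar at 21 °C and at 80.8, 85.1 and 81.5 CPM at 29 °C. In Duplo it was at 15.5, 0.297 and 4.74 CPM at 21 °C and at 0.473, 0.339 and 0.249 CPM at 29 °C. The varieties did not overlap at either temperature, and Duplo 21 °C replicates 1 and 3 stood above the other 4 Duplo libraries. At 29 °C its log2 difference was -7.76 (SE 0.25, edgeR adjusted p = 3.1e-05).

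The same picture held for BnaA10g27400D in the A10 run, at 27.7, 22.2 and 26.8 CPM in Drakkar at 21 °C, 20.8, 28.5 and 23.6 CPM in Drakkar at 29 °C, 4.56, 0.330 and 1.97 CPM in Duplo at 21 °C and 0.568, 0.301 and 0.213 CPM in Duplo at 29 °C (log2 difference at 29 °C -5.96, SE 0.36, edgeR adjusted p = 0.000123). In the A07 run, BnaA07g33460D was at 21.0, 27.5 and 22.3 CPM in Drakkar and 2.34, 0.363 and 1.37 CPM in Duplo at 21 °C, and at 28.7, 23.8 and 29.9 CPM and 0.315, 0.264 and 0.604 CPM at 29 °C. In both genes Duplo 21 °C replicate 2 resembled the Duplo libraries grown at 29 °C.

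The first A09 run, which lies inside the A09 stretch opposite C08, was less complete. Its most abundant gene, BnaA09g48380D, was at 215, 211 and 214 CPM in Drakkar and 27.4, 20.8 and 31.0 CPM in Duplo at 21 °C, and at 215, 239 and 203 CPM and 9.65, 26.9 and 33.7 CPM at 29 °C. Duplo thus kept a measurable level in every library, and the log2 difference at 29 °C was -3.15 (SE 0.44, edgeR adjusted p = 0.00359).

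**Figure D5:**
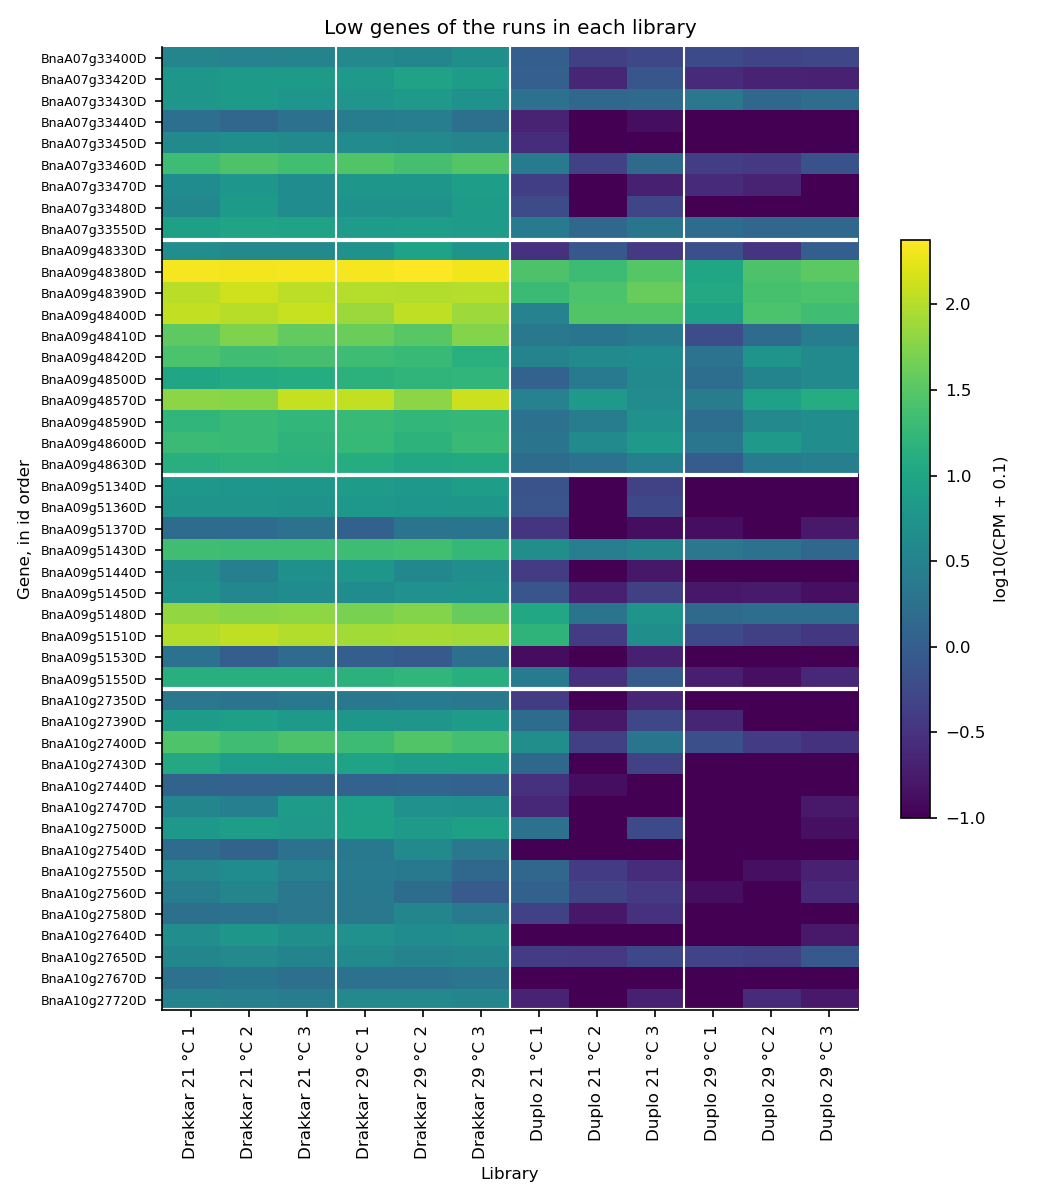
Level of the 45 low genes of the 4 runs in each library, as log10(CPM + 0.1), with genes in identifier order and white lines between runs and between groups. The 6 Drakkar libraries were alike, Duplo 21 °C replicates 1 and 3 were brighter than the other Duplo libraries in 3 of the runs, and BnaA09g48330D to BnaA09g48630D kept an intermediate level in Duplo.

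Single genes were also at or near 0 in one variety. Of the low genes, 91 had at most 3 counts in each of the 6 Duplo libraries and 89 had at most 3 counts in each of the 6 Drakkar libraries, on all 10 chromosomes. These are 0.441% and 0.432% of the A genes expressed at that level, beside 0.692% and 0.761% of all genes (319 and 351). Of these 91 and 89, 4 and 0 were members of runs. Without Duplo 21 °C replicates 1 and 3, 149 low A genes were at this floor in the other 4 Duplo libraries, and 524 over all genes. This floor is easier to meet in 4 libraries than in 6. The 91 genes reached 2.64 CPM in Drakkar at 21 °C in the median, and the 89 reached 2.16 CPM in Duplo.

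The most abundant of them, named after their values were seen, have no annotation at hand. BnaA09g20730D was at 87.0, 104 and 96.1 CPM in Drakkar at 21 °C and at 93.0, 90.3 and 91.9 CPM at 29 °C, with a single count in 1 Duplo library and 0 in the other 5. In Drakkar at 21 °C, BnaA05g19390D had a mean of 91.7 CPM, BnaA08g19440D of 73.1 CPM, BnaA07g32570D of 61.0 CPM and BnaA07g30390D of 50.7 CPM. Among genes at the floor in Drakkar, BnaA01g35100D had a mean of 22.1 CPM in Duplo at 21 °C and 23.5 CPM at 29 °C, and BnaA01g03330D of 18.4 and 16.1 CPM. BnaA04g22270D, with 17.5 and 16.3 CPM in Duplo, and BnaA09g11940D, with 13.8 and 14.1 CPM, followed.

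The response to warm temperature was then counted per chromosome. In Drakkar, 759 of 23456 A genes tested were called between 29 °C and 21 °C, or 3.24%, as were 3.24% of all genes. Of these DEGs (differentially expressed genes, edgeR), 570 were upregulated and 189 downregulated at 29 °C, beside 2.48% and 0.757% of all genes tested. The unadjusted p was under 0.05 for 6685 A genes, beside 28.4% of all genes. The number rested on single libraries. Leaving out replicates 1, 2 and 3 of Drakkar at 21 °C in turn left 43, 46 and 3, and leaving out replicates 1, 2 and 3 at 29 °C left 131, 1400 and 64. When libraries were scaled by their totals alone, 938 A genes were called and 84.4% of them were upregulated, against 75.1% with TMM factors, while the median over all genes went from 0.0063 to 0.13 on the log2 scale.

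The chromosomes spanned a narrow range, from 2.80% of genes on A01 (61 DEGs) to 3.98% on A02 (77 DEGs). A03 had 131 DEGs (3.66%) and A08 had 68 (3.68%), and the other chromosomes lay between 2.87% and 3.31%. A02 had the highest share in 12 of 13 alternative analyses, while the chromosome with the lowest share changed between A01, A04, A07, A09 and A10. On A06, 85.5% of the DEGs were upregulated, and on A08 58.8%, with 40 upregulated and 28 downregulated. Where at least 3 neighbouring tested genes were all DEGs in one direction, all were upregulated: BnaA03g44190D to BnaA03g44310D, BnaA09g20000D to BnaA09g20040D, which includes the vacuolar sorting gene *VPS28-2*, and BnaA09g39620D to BnaA09g39640D, which includes the pectin acetylesterase gene *PAE6*. Their log2 fold changes lay between 1.23 and 2.62.

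In Duplo, 1 A gene was called among 23021 tested, beside 0.00194% of all genes. This gene, BnaA09g42030D on A09, is *PAB4*, whose product binds the poly(A) tails of mRNAs. Its level was 4.24, 4.86 and 5.04 CPM at 21 °C and 21.2, 22.7 and 22.5 CPM after warm growth in Duplo, and 10.5, 12.6 and 13.1 CPM and 58.0, 48.4 and 52.2 CPM in Drakkar. Its level was lower in Duplo than in Drakkar at both temperatures, by log2 differences of -1.35 (SE 0.12, edgeR adjusted p = 0.000305) and -1.18 (SE 0.12, edgeR adjusted p = 0.000854). On A chromosomes 4633 genes had an unadjusted p under 0.05 in Duplo, beside 19.9% of all genes, and DESeq2 called 412. The count was 172 without Duplo 29 °C replicate 3.

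The most strongly upregulated Drakkar DEG was then read for each A chromosome, among those whose temperatures did not overlap. On A09 it was *Bnp23* (BnaA09g30420D), a co-chaperone of HSP90. Its level was 0.255, 0.0250 and 0.0596 CPM at 21 °C and at 104, 7.14 and 105 CPM at 29 °C in Drakkar (log2 fold change 9.16, SE 1.31, edgeR adjusted p = 0.0193). On A04 it was *BnGolS1* (BnaA04g26930D), a galactinol synthase of raffinose sugar synthesis, with 0.0852, 0.0250 and 0 CPM at 21 °C and at 18.3, 0.766 and 34.6 CPM at 29 °C. On A06 it was *ROF2* (BnaA06g30120D), a peptidyl-prolyl isomerase that in Arabidopsis binds HSP90, with 0.312, 0.601 and 1.04 CPM and 373, 22.2 and 388 CPM. In all 3 genes Drakkar 29 °C replicate 2 was far below the other 29 °C replicates.

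The small heat shock protein gene *HSP17.6II* led both A03, which carries it inside the shifted start (BnaA03g03740D), and A10 (BnaA10g20610D). BnaA03g03740D was at 1.76, 0.851 and 1.01 CPM at 21 °C and at 215, 4.73 and 254 CPM at 29 °C in Drakkar (log2 fold change 6.89, SE 1.35, edgeR adjusted p = 0.0347). In Duplo it was at 0, 94.9 and 0.134 CPM at 21 °C and at 1.80, 8.85 and 10.5 CPM at 29 °C, so that Duplo 21 °C replicate 2 held the highest level and the temperatures overlapped. BnaA10g20610D showed the same order, with 91.9, 1.04 and 129 CPM in Drakkar at 29 °C and 25.01 CPM in Duplo 21 °C replicate 2.

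On A07, the leading gene did not follow this pattern. *DRG1* (BnaA07g30360D), which encodes a GTP-binding protein, was at 0.284, 0.300 and 0.268 CPM at 21 °C and at 26.0, 11.4 and 24.2 CPM at 29 °C in Drakkar (log2 fold change 6.03, SE 0.38, edgeR adjusted p = 0.00462). In Duplo it was at 0.148, 0.463 and 0.0334 CPM and at 7.60, 8.51 and 13.1 CPM (log2 fold change 5.44, SE 0.65, edgeR adjusted p = 0.0888). The temperatures did not overlap in either variety, although the Duplo value missed the threshold. The remaining leading genes were *SMP1* on A01 (BnaA01g23920D, log2 fold change 7.17), a splicing factor, *GSTU12* on A02 (BnaA02g35760D, 8.53), a glutathione transferase at 0 in Drakkar at 21 °C whose fitted value is no bound, *GolS1* on A05 (BnaA05g00720D, 6.06) and the zinc-finger gene *ZPR1* on A08 (BnaA08g07440D, 8.22). In each of them Drakkar 29 °C replicate 2 was again the lowest 29 °C replicate, at 3.41, 0.348, 5.88 and 7.62 CPM in this order. Replicates 1 and 3 were at 15.5 and 8.96, 1.93 and 2.20, 69.4 and 33.4, and 61.8 and 51.8 CPM. Duplo 21 °C replicate 2 was the highest of its group for *SMP1* (6.87 CPM), *GolS1* (9.45 CPM) and *ZPR1* (5.39 CPM), but not for *GSTU12*.

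The most strongly downregulated DEGs of the chromosomes have no gene name at hand, and their log2 fold changes in Drakkar lay between -3.90 on A06 (BnaA06g09010D) and -1.38 on A04 (BnaA04g18640D). BnaA08g27030D was at 1.39, 1.48 and 1.22 CPM at 21 °C and at 0.0655, 0.174 and 0.0747 CPM at 29 °C in Drakkar, without overlap (log2 fold change -3.77, SE 0.38, edgeR adjusted p = 0.00983). In Duplo it was at 1.66, 1.22 and 2.30 CPM and at 0.315, 0.452 and 0.249 CPM, where its log2 fold change was -2.38 (SE 0.35, edgeR adjusted p = 0.0888). BnaA03g58620D combined both contrasts: it was at 0.965, 1.35 and 1.34 CPM at 21 °C and at 0.196, 0.278 and 0.149 CPM at 29 °C in Drakkar and at 0 in all 6 Duplo libraries.

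The heat-shock genes on A chromosomes were counted as a list. It holds 31 genes that the study listed for their behaviour in these samples, so that their direction is not independent evidence. In Drakkar, 28 were tested, 17 were called higher and 2 lower, 25 had a positive value, and the median log2 fold change was 3.64 against 0.0063 for all genes tested. Without Drakkar 29 °C replicate 2, 27 of 31 were called higher and 2 lower, whereas leaving out any other Drakkar library left 0 or 1 called higher. In those fits the median log2 fold change still lay between 3.08 and 4.33, and 25 of 28 or 28 of 31 genes had a positive value. In Duplo, 0 of 26 were called and the median was -0.19, and without Duplo 21 °C replicate 2 it was 1.65, with 24 positive values and still 0 called.

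The difference between the temperature responses of the varieties was tested over all 12 libraries. No A gene of 24437 tested was called by edgeR for this interaction, beside 0% of all genes, while 1739 had an unadjusted p under 0.05, beside 7.05% of all genes. The lowest adjusted p on the A chromosomes was 0.241. DESeq2 called 46, and edgeR called 44 without Duplo 21 °C replicate 2 and 63 without Duplo 29 °C replicate 3. Within the stretches that differed between the varieties, the share of genes called for temperature in Drakkar lay on both sides of the 3.24% of all genes. In the A03 start, 8 of 268 genes were upregulated and 5 downregulated (4.85%), with a median of -0.08. In the A05 end the numbers were 3 and 1 of 154 (2.60%), in the stretch near the end of A10 they were 2 and 0 of 104 (1.92%), in the A10 stretch of losses 3 and 0 of 36 (8.33%) and in the A09 stretch 3 and 0 of 34 (8.82%). In Duplo 0 genes of these stretches were called by edgeR, and in the A03 start 63 of 281 had an unadjusted p under 0.05.

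The study designed qPCR primers for 13 A genes, which it picked for their behaviour in these samples, so that their direction is not independent evidence. Between the varieties, 2 of the 10 tested were called at 21 °C and 4 of 13 at 29 °C, beside 12.3% and 11.1% of all genes. *BnPYL5* (BnaA10g24990D), an abscisic acid receptor, was lower in Duplo at 21 °C, with 10.2, 9.95 and 7.75 CPM against 21.0, 16.1 and 25.7 CPM in Drakkar (log2 difference -1.16, SE 0.20, edgeR adjusted p = 0.00567). *BnKMD1* (BnaA07g35640D), an F-box protein of cytokinin signalling in Arabidopsis, was higher in Duplo at 21 °C, with 0.830, 1.92 and 0.434 CPM against 0.0284, 0.0751 and 0.209 CPM in Drakkar (log2 difference 3.35, SE 0.77, edgeR adjusted p = 0.0192). For both genes the varieties did not overlap.

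At 29 °C, *BnGA2ox2* (BnaA07g07480D), which inactivates gibberellins, was higher in Duplo, with 0.789, 0.640 and 1.67 CPM against 0.327, 0.348 and 0.373 CPM (log2 difference 1.62, SE 0.43, edgeR adjusted p = 0.0473). *BnHSP23.6-MITO* (BnaA01g14560D), a mitochondrial small heat shock protein, was lower in Duplo, with 18.96, 26.0 and 27.8 CPM against 264, 35.3 and 304 CPM (log2 difference -2.96, SE 0.72, edgeR adjusted p = 0.0356). *Bnp23* and *BnGolS1* were lower as well, by log2 differences of -4.04 (SE 1.05, edgeR adjusted p = 0.0454) and -5.67 (SE 1.33, edgeR adjusted p = 0.0313). In Duplo, *Bnp23* was at 1.42, 3.88 and 7.10 CPM and *BnGolS1* at 0.252, 0.151 and 0.568 CPM. Drakkar replicate 2, at 7.14 and 0.766 CPM, lay little above the highest Duplo library. Both differences therefore rested largely on Drakkar replicates 1 and 3. The nitrate transporter gene *BnNRT2.1* (BnaA06g04570D) was at 14.4, 3.77 and 1.53 CPM in Duplo and 0.0655, 1.25 and 0.187 CPM in Drakkar, which did not overlap but missed the threshold (log2 difference 3.77, SE 1.17, edgeR adjusted p = 0.0851).

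The genes with the highest counts on each chromosome were read as well. Each took between 0.0548% (BnaA10g19870D) and 0.178% (BnaA07g08530D) of the library in the mean. Among these 10 genes, 0 were called in any of the 4 comparisons, and none has a name at hand. Over all genes, 12.3% and 11.1% were called between the varieties, and 3.24% and 0.00194% for temperature in Drakkar and Duplo. With only 10 genes, 0 called does not set them apart from other genes. The largest log2 fold change with temperature was that of BnaA01g27710D in Drakkar, from 765, 715 and 797 CPM at 21 °C to 1413, 1243 and 1261 CPM at 29 °C, which passed the adjusted p but not the fold limit (log2 fold change 0.66, SE 0.12, edgeR adjusted p = 0.0303).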

How the data were processed

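Root-tip RNA of 12 libraries was sequenced from TruSeq Stranded mRNA libraries. The authors aligned the reads with HISAT2 to the assembly AST_PRJEB5043_v1 and deposited raw counts per gene, 1 table per variety. How reads of near-identical copies were counted, and the version of HISAT2, are not given in the sources used here. The deposited comparisons made with DESeq2, which hold log2 fold changes and p-values of the authors, were not used.

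Counts were tested in R 4.3.3 with edgeR 4.0.16 (filterByExpr, TMM factors, quasi-likelihood test, Benjamini-Hochberg adjustment over all genes), with 6 libraries per fit and all 12 for the interaction. The alternative was DESeq2 1.42.0. Chromosome shares were compared by a two-sided exact permutation test within strata. Python 3.11.15, numpy 2.4.6, pandas 2.3.3 and matplotlib 3.10.9 served for shares, runs, blocks and plots. The tests and the run and block searches were tested on simulated data.

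The members and gene lists were chosen with earlier results of these data known. Named genes were, by rule, those of the primer table, the most strongly raised and lowered Drakkar DEG of each chromosome whose groups did not overlap, Duplo DEGs, the most abundant gene of each chromosome and the ends and most abundant genes of runs. Shifted stretches, genes annotated in them and genes at the floor were chosen after their values were seen.

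Replicate numbers are shared between groups. Only between the varieties at 29 °C did all same-numbered libraries deviate together (correlations of 0.19, 0.11 and 0.42), and with the replicate number as a block 2492 A genes were called there, against 2546 without it. Drakkar replicate 1 with Duplo replicate 2 (0.26) and Drakkar replicate 2 with Duplo replicate 1 (0.12) were positive too. Pairs of replicate 3 with another number lay between -0.36 and -0.14, so the pattern is not one of numbers alone. The labels do not say that a number marks a shared batch. The study describes the replicates as independent, each pooled from several pouches of seedlings, so p-values measure the spread between such pools.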

Additional observations from a re-analysis of the deposited data

How the results depend on the processing

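Counts of A genes called for temperature depended on the analysis. In Drakkar, where 759 were called, a replicate block gave 220 and one fit of all 12 libraries gave 493, and leaving out 1 library gave 3 to 1400. In Duplo, where 1 was called, DESeq2 gave 412, the replicate block 0, the fit of all 12 libraries 303 and leaving out 1 library 0 to 172. For the interaction, DESeq2 gave 46 and leaving out 1 library 0 to 63. The replicate numbers did not pair the libraries in the temperature comparisons. Between the varieties, requiring 10 counts in every library gave 1831 at 21 °C and 1586 at 29 °C, a filter that removes genes absent in 1 variety. The replicate block gave 2675 and 2492 there.

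The share of all A chromosomes at 29 °C minus 21 °C was -0.178 points without Duplo 29 °C replicate 1 (p = 0.005, exact permutation test), with a range of -0.178 to -0.105 over the libraries left out. Without the 50 top genes, 3 chromosomes reached the threshold. The small share changes of A02 (-0.0021 points) and A04 (-0.0185 points) changed sign. That of A02 was 0.0071 without the top genes and ranged from -0.0258 to 0.0327 without 1 library (0.0021, 0.0125, 0.0327, 0.0017 and 0.0052 where it turned), and that of A04 from -0.0469 to 0.0049 (0.0005 and 0.0049 where it turned). With runs of at least 3 low genes there were 9 runs in Duplo and 7 in Drakkar. In Drakkar there was 1 run with a minimum of 0.5 CPM, 1 with the 29 °C libraries, and 0 to 1 when a library was left out. Windows of 25 genes gave 14 blocks and a shift of 0.6 gave 76. Of the repeats for single genes and single chromosomes, 1187 kept direction and side of the threshold, 135 counts of calls per chromosome moved by over 1.5 times, 136 lost the threshold, 8 gained it and 8 turned sign (those of A02 and A04). The analyses without Duplo 21 °C replicates 1 and 3 were chosen after seeing the data. At 3 counts or fewer, absence and a low level cannot be told apart at this depth.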
